A study of Homo sapiens with 3 samples.

Results

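Among the genes that carry a specific DKK-1 site in DLD-1/DKK-1 chromatin, ADCY2, PRKG1 and CNGB3 encode an enzyme, a kinase and a channel subunit of cyclic nucleotide signalling. They were 3 of the 82 genes that the authors' list of 200 specific sites names. The genes were picked from that list, and for each of them the site and every peak within 100 kb of its transcript were collected from both deposited peak lists. The specific sites had been selected on fold enrichment, and were the peaks with a value of at least 10 in both lists (the lowest value of a site was 10.01, and the highest value just outside, taking the lower of the pair, was 9.98). Fold enrichment, score and presence in both lists are therefore given for the 3 sites as a description, without a test.

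Cyclic AMP and cyclic GMP are second messengers, made from ATP and GTP by adenylyl and guanylyl cyclases and degraded by phosphodiesterases. Cyclic AMP activates protein kinase A and cyclic AMP-activated exchange factors, cyclic GMP activates protein kinase G, and both can open cyclic nucleotide-gated cation channels. In the intestinal epithelium, cyclic GMP made by guanylyl cyclase C controls fluid secretion. ADCY2 is a membrane-bound adenylyl cyclase best known from the brain. PRKG1 is the cyclic GMP-dependent protein kinase that relaxes smooth muscle. CNGB3 is the modulatory subunit of the cyclic nucleotide-gated channel of cone photoreceptors, and its loss causes achromatopsia.

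DLD-1 is a human colorectal adenocarcinoma line that does not express its own DKK-1, a secreted Wnt inhibitor. DLD-1/DKK-1 cells carried a lentiviral, doxycyclin-inducible and V5-tagged DKK-1, DLD-1/Mock cells were transduced in the same way with no ectopic gene, and the third library was a pool of input DNA that saw no antibody. The Methods name an antibody to DKK-1 and the records of both immunoprecipitates name anti-V5, which could not be settled. Expression of DKK-1 was induced with doxycyclin, and how long before the ChIP is not given in the sources used here. There was 1 library for each of the 3 conditions, so nothing could be compared with replicate error. MACS, the authors' peak caller, kept 21312041 tags (aligned read starts) of DLD-1/DKK-1, 24151009 of DLD-1/Mock and 27723787 of input. At this depth 1.184 tags are expected by chance in a fragment length of 150 bp. The list against DLD-1/Mock held 6631 peaks, that against input 5281, and 3189 peaks were in both. Both lists rest on a single DLD-1/DKK-1 library, and a peak in both is not a second observation of it. Intervals are exact 95% Poisson intervals, which cover counting error only.

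The 3 windows held 24 distinct peaks, very unequally spread. ADCY2 had 2, PRKG1 had 6 and CNGB3 had 16. Of the 24 peaks, 21 were called against DLD-1/Mock and 12 against input. Both lists held 9 of them, 12 were called against DLD-1/Mock only and 3 against input only. Each window contained exactly 1 specific site. By position 12 peaks lay in introns, 2 touched an exon, 3 lay upstream of the transcript and 7 downstream. No peak (0 of 24) came within 1000 bp of the start of its gene's transcript. Stretches that close to a start are a very small part of windows of 0.634, 1.504 and 0.370 Mb. The positions were not counted over all peaks, so they do not set the loci apart.

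**Figure D1:**
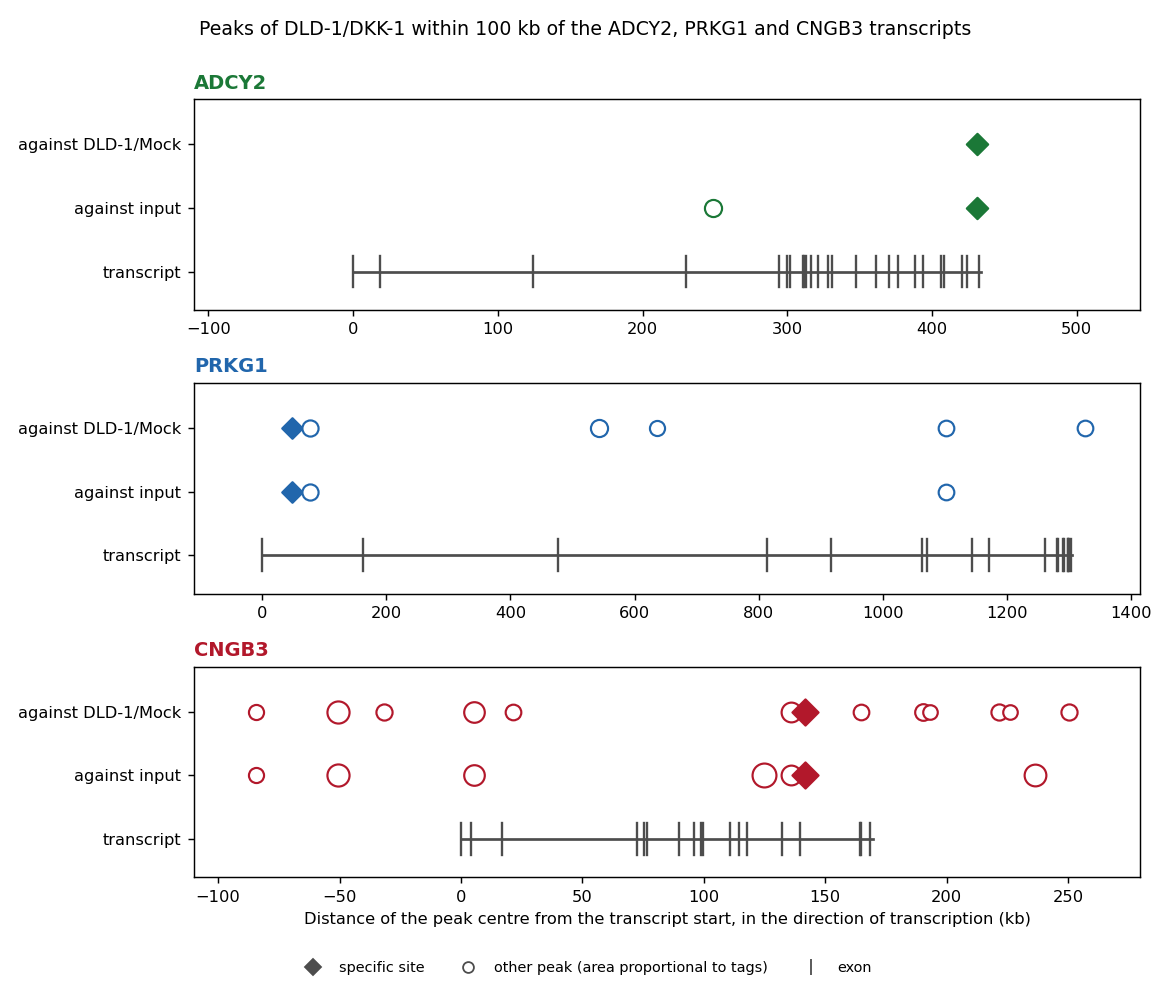
Peaks of DLD-1/DKK-1 at ADCY2, PRKG1 and CNGB3, placed by the distance of the peak centre from the transcript start in kb (x axis, a scale of its own for each gene), in one row for each control; filled diamonds are the specific sites, open circles the other peaks, symbol area is proportional to tags, and vertical ticks on the transcript are exons. ADCY2 has its site at the far end of the transcript, PRKG1 has 6 peaks spread thinly along its length, and CNGB3 has 16 peaks (a pair 169 bp apart near the start is drawn as one circle against DLD-1/Mock) inside and on both sides of the transcript.

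ADCY2 had the fewest peaks of the 3 loci. Its transcript NM_020546 runs on the plus strand of chromosome 5 over 433851 bp (hg18, chr5:7449343-7883193) and has 25 exons, which cover 1.505% of it. The specific site, chr5:7880091-7880368, was at the opposite end from the promoter, with its centre 430.887 kb from the start. The authors' list labels the site as intronic. By the exon coordinates in that same list it lay wholly within the last exon, number 25, which spans chr5:7879832-7883193 and is 3362 bp long. The site began 108 bp past the last coding base and ended 2825 bp before the end of the transcript, with 0 coding bases, so it was in the 3′ UTR. The mismatch of label and coordinates was not particular to ADCY2, since 3 of the 69 sites labelled intronic in the whole list lay wholly in an exon.

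The ADCY2 site was small, and dense for the 24 peaks. It was 278 bp wide, the 10th narrowest of the 200 sites, and it held 14 tags (95% interval 7.65 to 23.5). That came to 5.04 tags per 100 bp, the highest value of the 24 peaks, the next being 4.23 at CNGB3. The ratio carries the counting error of the 14 tags, and it is not set beside the lists here. Fold enrichment was 11.75 over DLD-1/Mock and 11.04 over input. Fold enrichment divides the tags at the summit by the tags expected there, and as the expectation is never below the genome-wide 1.184, 11.75 needs at least 14 tags at the summit, the number in the whole peak. The score (−log10 P, multiplied by 10) was 82.58 in the DLD-1/Mock list and 78.84 in the input list, which ranked 48th and 55th of 200 sites. The false discovery rate (FDR) that MACS estimates by exchanging ChIP and control was 36.36% and 100%.

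The other ADCY2 peak, chr5:7698008-7698598, was called against input only. It was wider and flatter, with 18 tags (95% interval 10.7 to 28.4) over 591 bp, a fold enrichment of 7.05 and a score of 51.75, close to 50, the lowest score that the P value cut-off of 1e-05 admits. It lay in intron 4, 18580 bp from exon 4 and 248.96 kb from the transcript start, and the closest peak called against DLD-1/Mock was the specific site itself, 181493 bp away. From 100 kb upstream of ADCY2 to its intron 4, the transcript start included, and in the 100 kb past its end, neither list held a peak.

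PRKG1, the longest transcript of the 3, had peaks along its whole length and none in an exon. NM_001098512 spans 1304329 bp on the plus strand of chromosome 10 (hg18, chr10:52420951-53725279), and its 18 exons cover 0.292% of it. The specific site, chr10:52469449-52469815, was in intron 1, 48040 bp from exon 1, with its centre 48.681 kb from the transcript start. Among the 83 sites with a gene, ordered from the nearest to the farthest from an exon, it was 72nd. It was the weakest of the 3 sites, with 13 tags (95% interval 6.92 to 22.2) over 367 bp. Both lists gave it the same fold enrichment of 10.14 and the same score of 56.4, and the score ranked 184th and 183rd of 200. A fold enrichment of 10.14 is 12 tags over the genome-wide background. At that background 11 tags give 9.29, so 1 tag fewer at the summit would have left PRKG1 outside the list of sites.

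The second peak of PRKG1 had this value of 9.29 against DLD-1/Mock, but it was further below 10 against input. At chr10:52497667-52498160, also in intron 1 and 27852 bp from the site, it held more tags than the site, 16 (95% interval 9.15 to 26.0) over 494 bp, and was in both lists. Its fold enrichment was 9.29 over DLD-1/Mock and 7.85 over input, and its scores of 60.93 and 51.41 lay above and below those of the site. The third shared peak, chr10:53522398-53522886, was 489 bp wide in intron 7, 30002 bp from exon 7, with 15 tags, a fold enrichment of 8.45 in both lists and a score of 55.02 in both. Thus the fold enrichment of a shared PRKG1 peak was the same in both lists for 2 of 3 peaks. Those values are 12 and 10 tags over the genome-wide background, which neither control sets, so their equality is not agreement between the controls. The number of tags in the shared peaks (13, 16 and 15) differed by less than the counting error of any of them.

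The remaining 3 PRKG1 peaks were called against DLD-1/Mock only. A pair of them lay in intron 3. The first, chr10:52963417-52963943, had the most tags and the highest score of the locus (18 tags over 527 bp, score 70.29, fold enrichment 7.6) and was 65816 bp from exon 3. The second, chr10:53057252-53057701, had 14 tags over 450 bp, a fold enrichment of 9.29 and a score of 52.95, and was 159651 bp from exon 3, the farthest from an exon of all peaks within the 3 transcripts. Gaps between neighbouring PRKG1 peaks against DLD-1/Mock ran from 27852 to 465257 bp.

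The last PRKG1 peak lay beyond the gene. At chr10:53746164-53746622, 20885 bp past the end of the transcript, it had 15 tags over 459 bp, a fold enrichment of 7.55 and a score of 58.13. In the RefSeq annotation of GRCh38.p14 the genes that start after PRKG1 are CSTF2T and then DKK1, the gene of the immunoprecipitated factor. The peak is on that side of PRKG1. The order is by gene start, so it does not tell whether either gene overlaps PRKG1. Its distance from DKK1 was not measured, for want of hg18 gene coordinates beyond those in the authors' list. DLD-1/DKK-1 cells carried an added DKK-1 gene that DLD-1/Mock cells lacked. Whether the peak overlaps DKK1, and so could hold tags of the construct, was not tested. Its count under PRKG1 rests on the window alone.

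CNGB3 had the shortest transcript and by far the most peaks. NM_019098 covers 169740 bp on the minus strand of chromosome 8 (hg18, chr8:87655279-87825018), with 18 exons over 2.55% of it. Of the 16 peaks, 7 lay in the transcript, and 14 were called against DLD-1/Mock, 7 against input and 5 against both. The specific site, chr8:87683067-87683718, was in intron 15, 1719 bp from exon 15 and 141.625 kb from the start. It held 21 tags (95% interval 13 to 32.1) over 652 bp. Its fold enrichment was 11.85 over DLD-1/Mock and 13.47 over input, the highest values of the 24 peaks, and ranked 24th and 7th of the 200 sites. At least 16 tags stood at the summit. The scores were 65.66 and 75.01 and the FDR 41.52% and 100%.

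The site did not have the most tags of its locus, nor the top score in the DLD-1/Mock list. The peak with the most tags, 35 (95% interval 24.4 to 48.7) over 828 bp, was chr8:87699979-87700806 in intron 13, which was called against input only, with a fold enrichment of 7.18 and a score of 70.31. The top score in the DLD-1/Mock list, 81.01, belonged to chr8:87819247-87820018 in intron 2, 981 bp from exon 2. It held 26 tags over 772 bp, was in both lists, and had a score of 74.59 against input and fold enrichments of 6.76 and 6.25. A second peak, chr8:87820187-87820654, began only 169 bp away. This one had 14 tags over 468 bp, was called against DLD-1/Mock only with a fold enrichment of 9.29, lay 345 bp from exon 2 and was, at 4.5975 kb, the closest of the 24 peaks to a transcript start.

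Within the CNGB3 transcript there were 3 further peaks. In intron 14, 3093 bp from exon 15, chr8:87688647-87689327 was in both lists with 24 tags over 681 bp and fold enrichments of 6.48 and 6.12. In intron 3, chr8:87803408-87803871 was called against DLD-1/Mock only with 15 tags, a fold enrichment of 6.76 and a score of 57.87. Near the 3′ end, chr8:87660168-87660639 spanned exons 16 and 17 and covered 185 coding bases, the only peak of the 24 that touched coding sequence. It had 15 tags over 472 bp, a fold enrichment of 8.30 and a score of 56.00, and was called against DLD-1/Mock only.

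Upstream of CNGB3, on the side of CNBD1 in RefSeq order, there were 3 peaks. The farthest, 84022 bp from the transcript, was in both lists with 14 tags and fold enrichments of 7.52 and 7.28. The middle one, at 50074 bp, was the widest of the 24 peaks (913 bp, 30 tags) and was also in both lists, with fold enrichments of 6.39 and 5.96. The nearest, at 31594 bp, had 16 tags and a fold enrichment of 10.14 against DLD-1/Mock, the value of the PRKG1 site. It was not in the list against input and so not a specific site. Downstream, on the side of CPNE3, 6 peaks lay 20474 to 80374 bp past the transcript end. Of these, 5 were called against DLD-1/Mock only, with 13 to 17 tags, and the other, at 66306 bp, against input only, with 29 tags over 826 bp, a fold enrichment of 6.77 and a score of 70.76. Whether any of the 6 downstream peaks lies in CPNE3 was not measured, for want of hg18 coordinates of that gene. Their count under CNGB3 rests on the window alone.

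**Figure D2:**
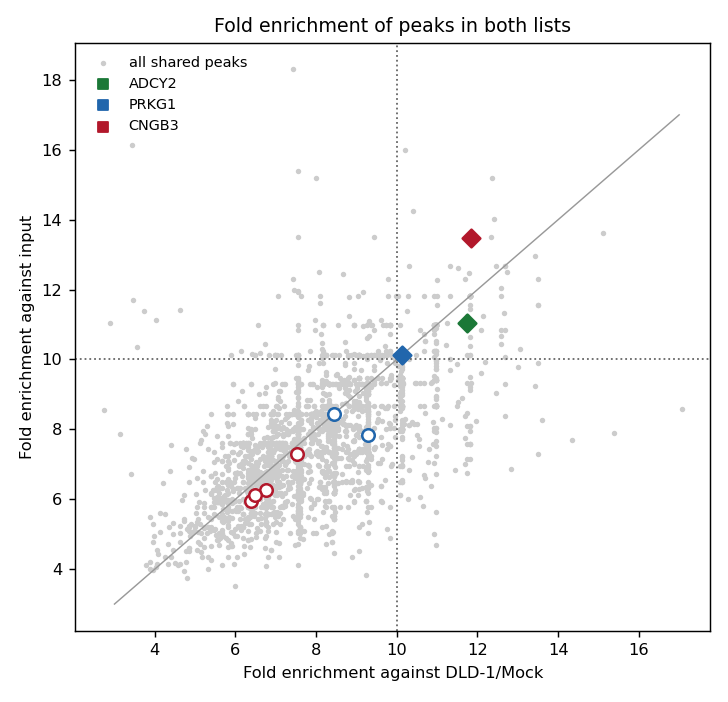
Fold enrichment against DLD-1/Mock (x axis) and against input (y axis) of the 9 peaks of the loci that are in both lists, over all 3189 shared peaks in grey; filled diamonds are the specific sites, open circles other peaks, dotted lines mark 10 and the solid line equal values. The CNGB3 site lies above the line of equal values, the ADCY2 site just below it and the PRKG1 site on it at 10.14, while the other 6 shared peaks stay under 10 on both axes.

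Leaving out the 3 specific sites, which were selected for being in both lists, 6 of 18 peaks against DLD-1/Mock (33.3%) were also called against input. Over all 6431 such peaks of the list the share was 46.5%. In the other direction, 6 of the remaining 9 peaks against input (66.7%) were also called against DLD-1/Mock, against 58.8% of 5081 over the list. With counts this small, neither share sets the loci apart from the lists. A fold enrichment of at least 10 was reached by 1 of the 18 other peaks against DLD-1/Mock, the CNGB3 peak at 31594 bp upstream, against a background of 6.3%. Against input it was reached by 0 of 9, against a background of 6.04%. No peak of the loci had a score of 100 or more in either list. Such scores were uncommon in the lists too, whose medians were 57.86 and 56.92 and whose highest scores were 515.76 and 2898.44. The highest scores of the loci, 82.58 against DLD-1/Mock and 78.84 against input, were those of the ADCY2 site. They exceeded the scores of 91.4% and 90.6% of the peaks of those lists. The FDR of the 24 peaks ran from 36.36% to 53.5% in the DLD-1/Mock list and from 66.83% to 100% in the input list. Over the whole lists it ran from 33.17% to 100% (median 47.07%) and from 65.44% to 100% (median 74%).

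At CNGB3 the list that held a peak went with its size. The 9 peaks called against DLD-1/Mock only had 13 to 17 tags (median 15) and were 376 to 566 bp wide. The 5 peaks in both lists had 14 to 30 tags (median 24), and the 2 called against input only had 29 and 35 tags. All 6 CNGB3 peaks with 21 tags or more were thus called against input, and 4 of them also against DLD-1/Mock. The smallest of them, with 21 tags, was the specific site, which was in both lists by selection. The value of 21 was read off these peaks, so no test was made of it. On chromosome 8 as a whole, 43.9% of peaks in both lists, 23.6% of those against DLD-1/Mock only and 24.1% of those against input only had 21 tags or more. Thus peaks in both lists were the larger ones on the whole chromosome too, but those against input only were not. No such separation was seen at PRKG1, where peaks in both lists had 13, 15 and 16 tags and those against DLD-1/Mock only 14, 15 and 18.

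**Figure D3:**
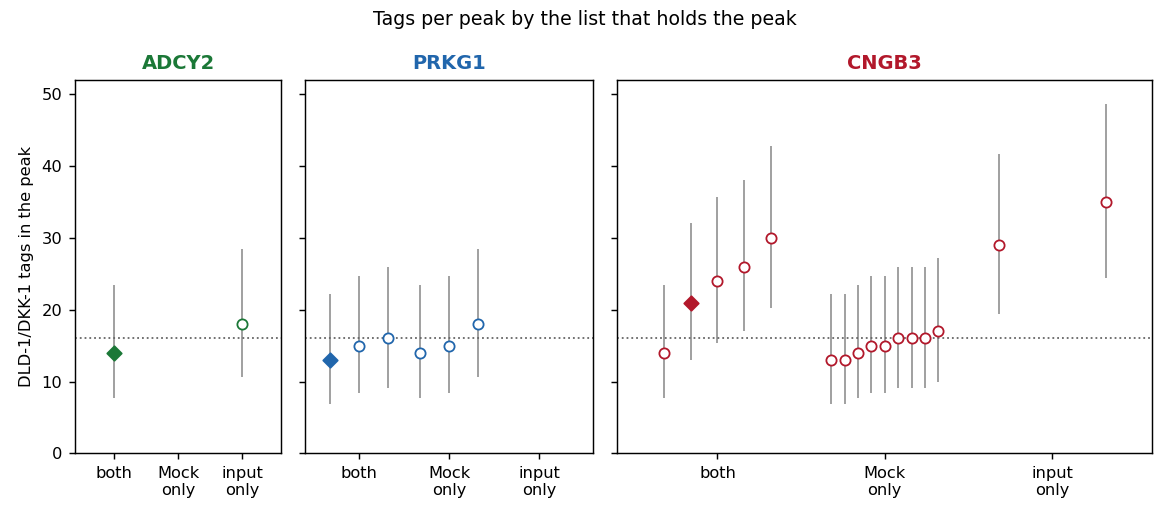
DLD-1/DKK-1 tags in each of the 24 peaks (y axis) by the list that holds the peak (x axis) at ADCY2, PRKG1 and CNGB3; diamonds are the specific sites, bars are exact 95% Poisson intervals and the dotted line is the median of all peaks against DLD-1/Mock, 16 tags. Most bars overlap, and the peaks above 20 tags are all at CNGB3 and all in the list against input.

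Compared with the lists, the tags of PRKG1 and of CNGB3 against DLD-1/Mock were ordinary. Medians were 15 tags (range 13 to 18) at PRKG1 and 16 (range 13 to 30) at CNGB3, and the median over the list was 16. Widths were ordinary too, with medians of 474 bp and 472 bp beside 477 bp. Against input, the 7 CNGB3 peaks stood higher, with a median of 26 tags and 772 bp, where the medians of chromosome 8 were 18 tags and 526 bp. Their fold enrichment, which rests on the summit and not on all tags of a peak, had a median of 6.77 beside 7.59 on the chromosome.

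The expectation behind each peak can be read from its fold enrichment. Where it equals a whole number of tags over 1.184 (within 0.0051), the genome-wide background was the largest of those MACS compared. This was so for 5 of 6 PRKG1 peaks against DLD-1/Mock and 2 of 3 against input. The shares were 37.0% and 39.0% over the lists, and 38.4% and 43.8% off chromosome 8. These PRKG1 counts include its specific site, which was selected on fold enrichment. At CNGB3 the genome-wide background was the largest for 7 of 14 against DLD-1/Mock, beside 34.0% on chromosome 8. Against input it was so for 0 of 7, beside 26.7%. At ADCY2 it was so for neither peak. For the 7 CNGB3 peaks against input, and for both ADCY2 peaks, the local count of the control thus set the expected number of tags.

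Per length of window, CNGB3 was the densest locus in both lists, whereas PRKG1 stood above ADCY2 in the DLD-1/Mock list and below it in the input list. CNGB3 had 37.9 peaks per Mb against DLD-1/Mock (95% interval 20.7 to 63.5) and 18.9 against input (7.61 to 39.0). PRKG1 had 3.99 (1.46 to 8.68) and 1.99 (0.411 to 5.83), and ADCY2 had 1.58 (0.0399 to 8.79) and 3.16 (0.382 to 11.4). The intervals of CNGB3 did not overlap those of PRKG1 in either list, nor that of ADCY2 against DLD-1/Mock. PRKG1 and ADCY2 could not be told apart at these counts. Since every window was chosen for holding a site, its density cannot fall to 0. Without the site, ADCY2 dropped to 0 peaks per Mb against DLD-1/Mock.

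The chromosomes themselves differed in density, and this moved with the difference between the loci. Chromosome 8 had 14.4 peaks per Mb against DLD-1/Mock and 10.3 against input, chromosome 10 had 2.75 and 2.50, and chromosome 5 had 1.302 and 1.08. Relative to its chromosome, CNGB3 stood at 2.63 and 1.84 times, PRKG1 at 1.45 and 0.796 times and ADCY2 at 1.21 and 2.92 times. The 5 Mb on each side of CNGB3 were denser than the rest of chromosome 8, with 25.2 and 19.6 peaks per Mb. Relative to these surroundings CNGB3 stood at 1.503 times in the DLD-1/Mock list and 0.966 times in the input list, values whose counting intervals include the surroundings' own density. Relative to its own surroundings PRKG1 stood at 1.53 and 1.05 times, so that its value in the input list passed from below to above 1. Around ADCY2 the same distance held 5 and 3 peaks in 10 Mb, and ADCY2 stood at 3.155 and 10.518 times. The surrounding density of 0.3 peaks per Mb in the input list was below the interval of ADCY2, which rests on 2 peaks, one of them the site for which the window was chosen. Without that site 1 peak is left, and the interval of 1 peak in this window, 0.0399 to 8.79 per Mb, includes 0.3. Without the site, the ratios of ADCY2 to its chromosome were 0 and 1.459. The part of chromosome 8 as a whole in the CNGB3 values was not tested.

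Among all 82 genes with a specific site, windowed in the same way, CNGB3 ranked 6th by density against DLD-1/Mock and 12th against input. PRKG1 ranked 50th and 76th, and ADCY2 80th and 60th. The median over the 82 windows was 4.76 and 4.54 peaks per Mb. CNGB3 was one of 12 such genes on chromosome 8, whose medians were 31.0 and 26.1, and was 4th and 8th of them. Thus CNGB3 was dense among all genes with a site and in the middle of those of its chromosome. PRKG1 was the least dense of the 6 genes of chromosome 10 against input, but 4th of them against DLD-1/Mock. ADCY2 was the least dense of the 7 genes of chromosome 5 against DLD-1/Mock, but 4th of them against input.

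**Figure D4:**
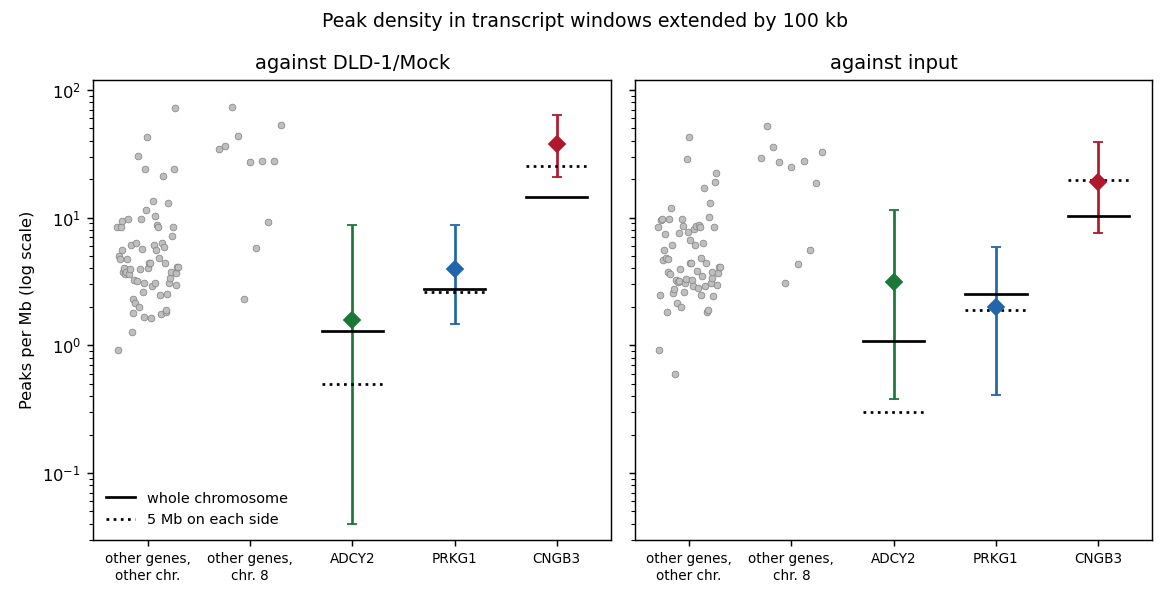
Peaks per Mb (y axis, log scale) in transcript windows extended by 100 kb, against DLD-1/Mock and against input; grey points are the other genes with a specific site, on and off chromosome 8, diamonds are ADCY2, PRKG1 and CNGB3 with exact 95% Poisson intervals, solid lines the density of the whole chromosome and dotted lines that of 5 Mb on each side. CNGB3 sits at 37.9 and 18.9 among the other genes of chromosome 8, and ADCY2 and PRKG1 lie at or below the middle of the genes of other chromosomes, with intervals that include their own chromosome's density.

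Of 88 genes listed for cyclic nucleotide signalling, ADCY2, PRKG1 and CNGB3 were the 3 named in the list of sites, which is how they were chosen. Few genes of any kind were named there, 74 of the 20052 protein-coding genes of RefSeq (0.369%), so a count of 0 in a class of a few genes sets it apart from no other class. The 3 genes made up 1 of 10 adenylyl cyclases, 1 of 2 cyclic GMP-dependent kinases and 1 of 6 cyclic nucleotide-gated channel subunits. None of the 8 guanylyl cyclases, 24 phosphodiesterases, 7 protein kinase A subunits, 13 A-kinase anchoring proteins or 4 HCN channels was named, nor were the exchange factors RAPGEF3 and RAPGEF4 or PRKG2, the other cyclic GMP-dependent kinase. The full peak lists carry no gene names, so peaks at those genes that did not reach the list of sites were not counted here. All 3 members have long transcripts, of 434, 1304 and 170 kb, but peaks per gene did not follow length, and the shortest had the most.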

How the data were processed

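ChIP-seq libraries were those of DLD-1/DKK-1, DLD-1/Mock and input, grouped by the cell type given in the sample records. The authors aligned 40 bp reads to hg18 with ELANDv2 in CASAVA 1.7, kept unique alignments and called peaks with MACS 1.4.0beta on single libraries (P value cut-off 1e-05, fragment size 150 bp, regional background over 1000 and 10000 bp, no more than 2 tags at a position). Tags per peak are counts as the authors deposited them, not normalized. The score, as deposited, is 10 times the −log10 of the P value. Fold enrichment is the ratio deposited by the authors, and the FDR is a percent deposited as MACS wrote it.

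Peaks were assigned to a window, to exons and to a shared list by at least 1 bp in common, with pandas 2.3.3 and numpy 2.4.6 under Python 3.11.15; scipy 1.17.1 gave the intervals and matplotlib 3.10.9 the plots. Exons were those of the single transcript in the authors' list, although RefSeq now gives 4 mRNA accessions for PRKG1. Chromosome density was taken between the first and last peak. Gene order came from RefSeq (GRCh38.p14), of which no coordinate was used. Peak overlap and placement were checked on simulated peaks. No test between conditions was possible with 1 library each. The genes named are the 3 members, other listed pathway genes with a site, DKK1 and any listed gene in a window, with neighbours and pathway genes without a site added for context. Members, gene list and windows were chosen with earlier results of these data known. Alternatives were other window extensions, a stricter P value (1e-10), fold enrichment from 10 upward, 50% reciprocal overlap, summits, means, 5 Mb surroundings and leaving out the site. No sequence of a peak is shown, since no hg18 genome was used here.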

Additional observations from a re-analysis of the deposited data

How the results depend on the processing

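Of 84 recomputed values, 50 stayed within 1.5 times the reported value and 34 moved further. At a P value of 1e-10 or less, every count at ADCY2, PRKG1 and CNGB3 in either list and in both fell to 0. At a fold enrichment of at least 10, the counts that moved became 1 for ADCY2 against input, 1 in each list and 1 shared for PRKG1, and 2 against DLD-1/Mock, 1 against input and 1 shared for CNGB3. CNGB3 counts in the DLD-1/Mock list, the input list and both were 6, 4 and 3 in the transcript alone, 9, 4 and 3 with 50 kb, and 26, 17 and 11 with 200 kb. With 5 Mb on each side in place of the chromosome, the density ratio of ADCY2 was 3.155 in the DLD-1/Mock list and 10.518 in the input list, and that of CNGB3 was 1.503 and 0.966, the last passing from above to below 1. That of PRKG1 in the input list passed from 0.796 to 1.05. Leaving out the specific site was chosen after seeing the data. It left ADCY2 with 0 peaks in the DLD-1/Mock list, 1 in the input list and 0 shared, and density ratios of 0 and 1.459. Under other windows PRKG1 counts stayed within 1.5 times the reported value. They became 5 against DLD-1/Mock in the transcript alone and 4 against input with 200 kb. Counting peaks by summit, 50% reciprocal overlap and means in place of medians moved no value.

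Peaks of 13 to 35 tags from 1 library limit the precision of every value, and a peak absent from a list may lie just below its cut-off. No paired analysis was possible because there was only 1 library for each condition.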
